A study of Mus musculus with 32 samples.

Results

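Transcripts of 7 genes for S100 calcium-binding proteins were followed through every condition of a mouse mammary epithelial cell series. The members were S100a1, S100a4, S100a6, S100a8, S100a9, S100a10 and S100a13, taken as the genes of a list of 8 with a probe set annotated to that symbol alone. They hold 10 probe sets, of 34945 probe sets with 1 symbol for 18193 genes on the array. The only probe set of the eighth gene, S100a11, is annotated to 3 symbols, one of them the pseudogene S100a11-ps, so no value is given for it.

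The arrays were Affymetrix mouse genome arrays, 32 in all, with 2 per condition that the labels call biological replicates. NMuMG cells, a normal mouse mammary gland epithelial line, and E1KD cells, their derivative with a knockdown of hnRNP E1 (an RNA-binding protein encoded by Pcbp1), were left untreated or given TGF-beta2 at 5 ng/ml for 24 h. From each of these 4 states came total RNA, a monosomal (M) pool, taken as non-translating, and a polysomal (P) pool, taken as translating, both from sucrose gradients. The other 8 arrays hold RNA precipitated from NMuMG cytosol with an hnRNP E1 antibody or with IgG, with and without TGFβ. How the knockdown was made, and whether E1KD is 1 clone, is not given in the sources used here. The series asks which transcripts TGFβ moves between the pools, and which of them depend on hnRNP E1.

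S100 proteins are small calcium sensors with EF-hand motifs. On binding calcium most of them open a hydrophobic surface that takes up a partner protein, so that inside the cell they act on annexins, the cytoskeleton and enzymes, while several are also released and bind cell-surface receptors such as RAGE (Ager) and TLR4. S100A8 and S100A9 pair as calprotectin, abundant in neutrophils and in stressed epithelia, and S100A4 is widely used as a marker of fibroblasts and of epithelial-mesenchymal transition. In RefSeq's mouse annotation S100a1, S100a13, S100a4, S100a6, S100a8 and S100a9 lie in that order in a cluster on chromosome 3, with S100a11 and S100a10 further along the same chromosome.

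The sequences before the start sites of S100a8, S100a9 and S100a4 are shown because these 3 genes differed most between the lines, S100a8 and S100a9 in one direction and S100a4 in the other. They are the 250 bases before each start in RefSeq's GRCm38.p6, written 5′ to 3′ on the gene's strand, with matches to TTNNGNAA or its reverse complement in capitals, a spaced pattern that binding sites of C/EBP factors commonly hold. The S100a8 window is chr3:90668821-90669070 on the + strand, the S100a9 window chr3:90695722-90695971 on the - strand and the S100a4 window chr3:90603520-90603769 on the + strand.
S100a8: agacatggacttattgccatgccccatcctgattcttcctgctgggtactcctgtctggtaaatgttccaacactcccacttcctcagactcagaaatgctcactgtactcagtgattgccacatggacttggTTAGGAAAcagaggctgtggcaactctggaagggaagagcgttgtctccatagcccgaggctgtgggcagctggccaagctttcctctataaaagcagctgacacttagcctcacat
S100a9: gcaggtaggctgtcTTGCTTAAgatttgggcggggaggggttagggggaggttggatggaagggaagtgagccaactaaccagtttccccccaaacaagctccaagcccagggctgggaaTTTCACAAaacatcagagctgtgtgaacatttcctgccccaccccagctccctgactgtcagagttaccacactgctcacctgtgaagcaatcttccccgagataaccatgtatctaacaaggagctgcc
S100a4: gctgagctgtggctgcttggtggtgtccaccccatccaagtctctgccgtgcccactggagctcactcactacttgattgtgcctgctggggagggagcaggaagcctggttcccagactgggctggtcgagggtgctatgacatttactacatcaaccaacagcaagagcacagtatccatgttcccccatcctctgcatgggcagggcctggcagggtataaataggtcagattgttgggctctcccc

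The pattern was found 1 time in the S100a8 window, 2 times in that of S100a9 and 0 times in that of S100a4, where 36.8% of all 32851 mouse promoter windows of this length hold at least 1 match. Of the other patterns searched on both strands, CAGAC, the core of the SMAD-binding element, matched 2 times for S100a8, 1 time for S100a4 and 0 times for S100a9 (42.2% of all windows). The E-box CANNTG matched 3 times for S100a8, 1 time for S100a9 and 0 times for S100a4 (66.2%). The AP-1 pattern TGANTCA (6.75%), the NF-kB pattern GGGGNNTCC (4.82%) and GTCTAGAC (0.167%) had no match in these 3 windows. A match describes the letters of a window and does not show binding. S100a1 and S100a13 start head to head, and their windows share 104 bases.

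Before the S100 values, the targeted gene was read in every group. The Pcbp1 signal, on the log2 scale used throughout, averaged 13.10 in untreated and 13.14 in treated NMuMG total RNA, against 10.82 and 9.44 in E1KD (n = 2 each). In the M and P pools it was 13.16 to 13.27 in NMuMG and 8.55 to 10.03 in E1KD. Replicate arrays correlated at r = 0.974 to 0.998 over the probe sets kept. Of 12 epithelial markers 10 passed the filter on dim probe sets (a value over 5.52, the median of the table, on at least 8 arrays) and Cldn7 and Esrp1 did not. Krt8 and Krt18, the simple-epithelial keratins, lay at 13.85 to 14.52 and 14.28 to 14.59 over the 24 fractionation and total RNA arrays, while Epcam, Cldn3 and Grhl2 had group means of only 5.45 to 6.16 in total RNA. Of 11 myeloid genes with a probe set, 3 (Csf1r, Cd68 and Camp) passed that filter, and the leukocyte gene Ptprc stayed at 3.40 to 4.35 and Itgam at 3.35 to 4.63, below the median of all values. Csf1r and Cd68 differed in opposite directions between the untreated lines in total RNA, with means of 8.60 in NMuMG and 7.20 in E1KD for Csf1r (-1.41, adjusted p = 1.26e-06) and of 6.58 and 8.31 for Cd68 (1.74, adjusted p = 8.09e-06). The mean over the myeloid list was 4.90 to 5.02 in untreated NMuMG total RNA and 4.95 in both untreated E1KD arrays. The part of these genes in the S100 differences was not tested. In RNA from bulk cultures, fewer cells with a transcript and less of it per cell cannot be told apart.

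S100a8 and S100a9 encode the subunits of calprotectin, which binds calcium and metal ions and signals through TLR4 and RAGE. In untreated NMuMG total RNA S100a8 gave 12.34 on both arrays, and in untreated E1KD 5.10 and 4.91. The lines were thus far apart, with the E1KD arrays below the median of all values in the table. The difference was -7.34 (SE 0.15, adjusted p = 7.27e-15 by limma). Whether a signal near 5 stands above background was not tested, because no detection calls were used, so no fold is given against it. S100a9 gave 9.0 and 8.96 in NMuMG and 5.08 and 4.59 in E1KD, again without overlap, a difference of -4.15 (SE 0.18, adjusted p = 3.95e-11). All 10 S100 probe sets passed the filter, S100a8 with 27 and S100a9 with 19 of the 32 arrays over the median; the E1KD arrays of S100a9 lay at 4.54 to 5.55, so it passed through the NMuMG arrays, and the size of its differences against E1KD rests on dim values.

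S100a4, which binds non-muscle myosin and promotes cell motility, was the member that went the other way. Its untreated total RNA signal was 10.24 and 10.31 in NMuMG and 11.62 and 11.64 in E1KD. Both knockdown arrays lay above both parental ones, by 1.36 (SE 0.17, adjusted p = 1.29e-05), which is 2.56-fold.

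In all, 9 of the 10 S100 probe sets passed an adjusted p of 0.05 between the untreated lines, 1 higher and 8 lower in E1KD, where 29.3% of the 25432 probe sets tested passed. The median difference was -0.56 over the 10 and -0.02 over all probe sets tested. S100a13, which takes part in the export of FGF1 and interleukin 1α, gave 10.67 and 10.64 in NMuMG and 9.48 and 9.51 in E1KD. It was lower by 1.16 (SE 0.11, adjusted p = 6.25e-07). S100a1, best known from cardiac and skeletal muscle, gave 10.62 and 10.52 against 9.84 and 9.91, and its difference of -0.70 (adjusted p = 0.000873) was followed by its other probe set at -0.66. S100a6, also called calcyclin, gave 14.58 and 14.52 against 14.12 and 14.18. It fell by 0.40 (adjusted p = 0.00127), on signals close to the highest value in the table, 14.92. S100a10, the partner of annexin A2 at the membrane, gave 13.07 and 13.11 against 12.78 and 12.81, and its difference of -0.30 (adjusted p = 0.024) was lost without any 1 of the 4 arrays compared (adjusted p of 0.0804 to 0.13) and after centring on actin and Gapdh control probe sets (0.114). For S100a10 a further probe set gave -0.46 (adjusted p = 0.0044) and the dimmest gave -0.18 (adjusted p = 0.545). The untreated pools differed from total RNA here. S100a13 did not pass in M (-0.22, adjusted p = 0.102) or in P (-0.085, adjusted p = 0.554). S100a1 and S100a6 were lower in E1KD in M (-1.065 and -0.245, the latter lost under some alternative settings) and did not pass in P (-0.24 and -0.035). The brightest S100a10 probe set passed in neither pool, while S100a9 was lower in both (-1.49 in M and -0.715 in P).

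**Figure D1:**
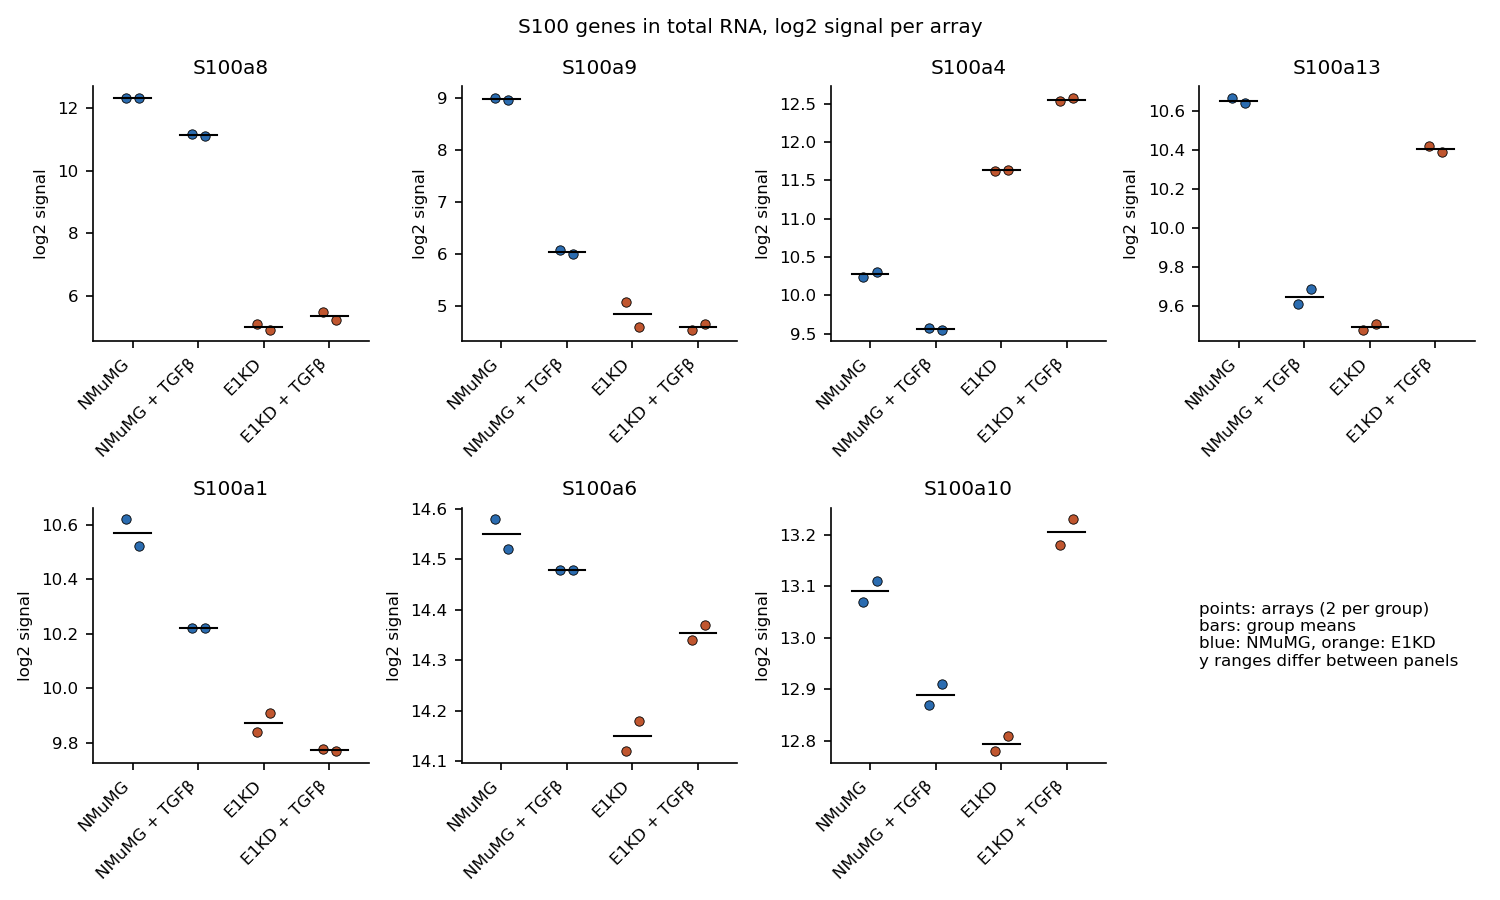
Log2 signal of the 7 S100 genes in total RNA, 2 arrays (points) and their mean (bar) for each of the 4 groups; y ranges differ between panels. S100a8 and S100a9 stand at 12.34 and about 9 in untreated NMuMG and near 5 in E1KD, while S100a4 is higher in E1KD.

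The same markers of cell state were read beside these differences. Of 10 mesenchymal genes tested, 8 were higher and 0 lower in untreated E1KD (29.3% of all probe sets passed in either direction), led by the matrix gene Fn1 (3.39), the smooth-muscle actin gene Acta2 (2.55), Sparc (1.80) and the repressor gene Zeb2 (1.66). Of 10 epithelial genes, 4 were lower and 0 higher, near that share, with the tight-junction gene Ocln at -3.10 and Cdh1, the E-cadherin gene, at -0.59. Over all 12 genes of each list the array means were 8.10 to 8.11 in NMuMG and 9.14 to 9.16 in E1KD for the mesenchymal list, and 8.91 to 8.93 and 8.47 to 8.53 for the epithelial list. Their part in the S100 differences was not tested.

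TGFβ lowered 4 S100 genes in NMuMG total RNA and raised 3 in E1KD. S100a9 gave 9.0 and 8.96 without and 6.07 and 6.0 with TGFβ in NMuMG. It fell by 2.95 (SE 0.18, adjusted p = 4.52e-08), or 7.70-fold, the largest fall among the 7 genes. Its treated arrays lay not far above 5.52, the median of all values, so the size of this fall rests in part on dim values. S100a8 gave 12.34 on both arrays before and 11.17 and 11.11 after, and fell by 1.20 (SE 0.15, adjusted p = 9.35e-05). Neither gene's groups overlapped. S100a13 went from 10.67 and 10.64 to 9.61 and 9.69, a fall of 1.01 on the log2 scale (SE 0.11, adjusted p = 2.49e-05). S100a4 went from 10.24 and 10.31 to 9.58 and 9.55, without overlap. Its difference of -0.71 (SE 0.17, adjusted p = 0.0191) was no longer past the threshold when any 1 of the 4 arrays compared was left out, with adjusted p-values of 0.101 to 0.155. In the NMuMG pools S100a4 fell in M by 0.505 (adjusted p = 0.0138) and rose in P by 0.545 (adjusted p = 0.0231). Both of these calls were lost under some alternative settings. The total RNA values of S100a1 (-0.35), S100a6 (-0.07) and S100a10 (-0.20) did not pass. In counts, 0 of the 10 probe sets were higher and 4 lower, where 5.43% of all probe sets passed.

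In E1KD total RNA 4 of the 10 probe sets were higher and 0 lower with TGFβ, beside 21.2% of all probe sets. S100a4 gave 11.62 and 11.64 without and 12.53 and 12.58 with TGFβ, a rise of 0.93 (SE 0.17, adjusted p = 0.000935). S100a13 gave 9.48 and 9.51, then 10.42 and 10.39, a rise of 0.91 (SE 0.11, adjusted p = 2.26e-05). S100a10 gave 12.78 and 12.81, then 13.18 and 13.23, a rise of 0.41 (SE 0.09, adjusted p = 0.00438) that its second brightest probe set shared (0.55), while the dimmest did not pass (0.16). In the E1KD pools S100a4 did not pass, at 0.015 in M (adjusted p = 0.954) and -0.185 in P (adjusted p = 0.614). S100a10 ran the other way there. Its M arrays went from 12.98 and 13.01 to 12.65 and 12.60 (-0.37, adjusted p = 0.00516; -0.31 at the second brightest probe set, adjusted p = 0.0385), and its P arrays from 12.78 and 12.81 to 12.49 and 12.50 (-0.30, adjusted p = 0.081). In total RNA S100a4, S100a13 and S100a10 thus rose without overlap between the groups. S100a8 gave 5.10 and 4.91, then 5.48 and 5.22 (0.35, adjusted p = 0.126), and S100a9 gave 5.08 and 4.59, then 4.54 and 4.65 (-0.24, adjusted p = 0.399), both among the dim values.

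**Figure D2:**
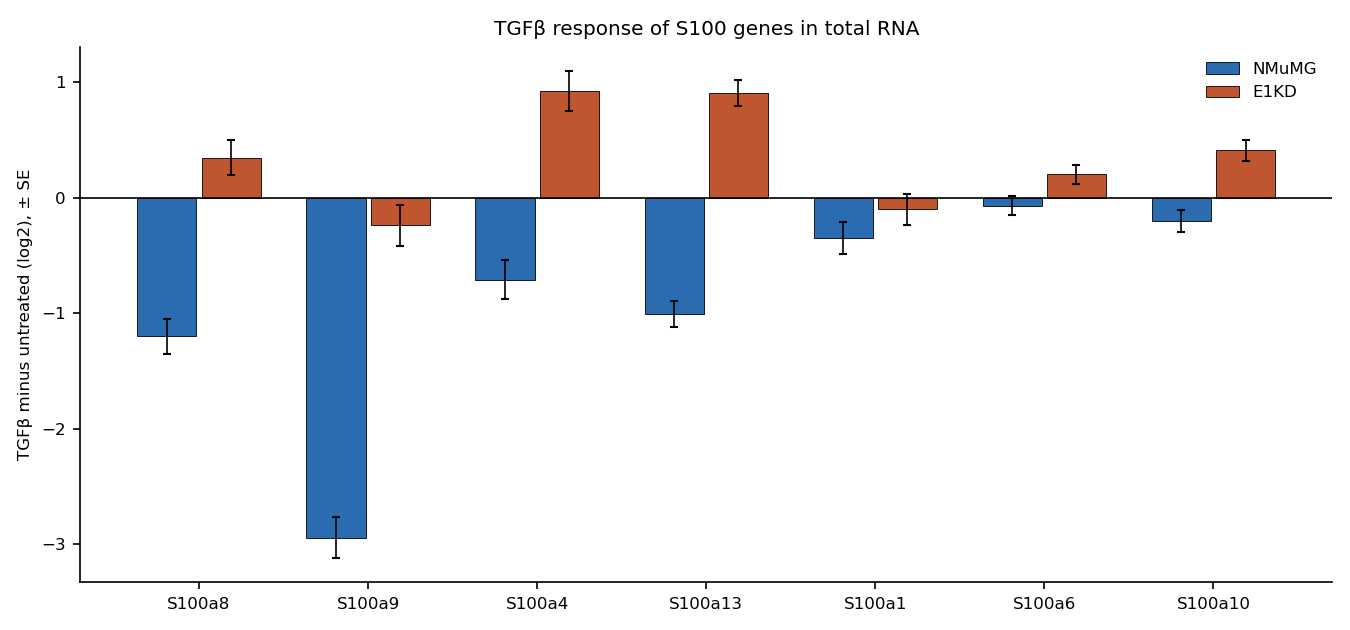
TGFβ response in total RNA (treated minus untreated, log2; bars, differences of 2 against 2 arrays; error bars, SE of the limma fit) of the 7 S100 genes in NMuMG and E1KD. S100a4 and S100a13 point down in NMuMG (-0.71 and -1.01) and up in E1KD (0.93 and 0.91).

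The difference between the 2 responses was tested as an interaction, E1KD minus NMuMG. It passed for 6 of the 10 probe sets, 6 in the positive direction and 0 in the negative, where 11.4% of all probe sets passed. It was 1.92 for S100a13 (SE 0.16, adjusted p = 9.5e-07), 1.64 for S100a4 (SE 0.24, adjusted p = 0.000272) and 0.61 for S100a10 (SE 0.13, adjusted p = 0.00578). For S100a9 it was 2.71 (SE 0.25, adjusted p = 2.53e-06) and for S100a8 1.55 (SE 0.21, adjusted p = 0.000151). Both of these genes fell in NMuMG, whereas neither response was called in E1KD. Their E1KD signals were below the median of all values with and without TGFβ, and whether this limited a fall was not tested. For S100a4 and S100a13 both total RNA responses passed, in opposite directions, subject to the arrays named above for S100a4. In the pools the lines did not part this way for S100a13. It rose in M by 0.365 in NMuMG (adjusted p = 0.00755) and by 0.34 in E1KD (adjusted p = 0.0238), both lost under some alternative settings. Its P values of -0.26 in NMuMG and -0.39 in E1KD did not pass. The untreated NMuMG total RNA arrays also enter the comparison of the untreated lines. The total RNA falls of S100a8, S100a9 and S100a13 with TGFβ and in E1KD thus share their control samples.

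With TGFβ present in both lines, 6 of the 10 probe sets differed, 3 higher and 3 lower in E1KD, beside 27.2% of all probe sets. S100a4 stood 2.99 higher in E1KD (SE 0.17, adjusted p = 1.69e-09), which is 7.95-fold, with 9.58 and 9.55 in treated NMuMG and 12.53 and 12.58 in treated E1KD. S100a8 stood 5.79 lower (SE 0.15, adjusted p = 1.5e-13) and S100a9 1.44 lower (SE 0.18, adjusted p = 1.14e-05) in E1KD. Both differences had the sign of those in untreated cells. S100a13 was 0.76 higher in treated E1KD (adjusted p = 7.71e-05), against 1.16 lower in untreated E1KD. The values of S100a1 (-0.45, adjusted p = 0.0218) and S100a10 (0.32, adjusted p = 0.018) were lost without single arrays, with adjusted p-values of 0.0892 to 0.0945 and 0.0611 to 0.111, and that of S100a1 also differed in call at its other probe set (adjusted p = 0.138).

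The M and P pools came next. Their contrast, P minus M, reads how a transcript divides between the 2 pools, each measured on arrays of its own. The arrays differed in their overall spread: the 75th percentile of all probe sets was 7.94 and 7.99 in the untreated NMuMG M pool and 7.39 and 7.44 in its P pool, 7.36 and 7.50 in the treated M pool and 7.52 and 7.53 in the treated P pool, where total RNA arrays had 8.02 to 8.17. In E1KD the pools had 7.39 to 7.67. The part of this spread in the pool differences was not tested beyond a renewed quantile normalization. S100a8 in untreated NMuMG gave 11.34 and 11.33 in the M pool and 7.59 and 7.21 in the P pool, so that all P values lay below all M values. P minus M was -3.94 (SE 0.15, adjusted p = 2.23e-11), or 15.3-fold. With TGFβ the M pool gave 12.10 and 12.22 and the P pool 10.23 and 10.21, and P minus M was -1.94 (SE 0.15, adjusted p = 2.23e-08). The polysome shift, P minus M with TGFβ less the same without, was thus 2.00 for S100a8 (SE 0.21, adjusted p = 6.25e-07). S100a8 rose in the NMuMG P pool by 2.82 with TGFβ (SE 0.15, adjusted p = 6.47e-09) and in the M pool by 0.83 (adjusted p = 0.000138), while its total RNA fell.

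In E1KD the picture for S100a8 differed. Without TGFβ its M pool gave 6.74 and 6.75 and its P pool 8.22 and 8.49, so that the P pool was now the higher one, by 1.61 (SE 0.15, adjusted p = 7.76e-07). With TGFβ the M pool gave 5.57 and 5.39 and the P pool 5.58 and 5.98, a difference of 0.30 (adjusted p = 0.0979). The shift was -1.31 (SE 0.21, adjusted p = 0.000707). The treated arrays, at 5.39 to 5.98, lay around the median of all values of 5.52, so the size of this shift rests on dim values. Whether such dim signals limit a pool difference was not tested. With TGFβ S100a8 fell by 2.58 in the E1KD P pool (SE 0.15, adjusted p = 1.66e-07; 0.187 in a fit of the 4 arrays compared alone) and fell by 1.27 in the M pool (adjusted p = 1.98e-05). The shifts of the lines differed by -3.31 (SE 0.30, adjusted p = 2.62e-06), a value that carries the same limit.

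The pools also placed the lines differently for S100a8. In the untreated M pools E1KD was 4.59 lower than NMuMG (SE 0.15, adjusted p = 3.25e-12), whereas in the untreated P pools it was 0.96 higher (SE 0.15, adjusted p = 5.98e-05). In untreated E1KD both pools (6.74 to 8.49) lay above total RNA (4.91 and 5.10), and in untreated NMuMG both (7.21 to 11.34) lay below it. Total RNA and the pools are separate preparations, so a level in one does not add up to a level in another. Among 12 groups in order of S100a8 level, from untreated NMuMG total RNA at 12.34 down to untreated E1KD total RNA at 5.00, 1 of 11 neighbouring pairs overlapped, treated E1KD M pool and treated E1KD total RNA.

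**Figure D3:**
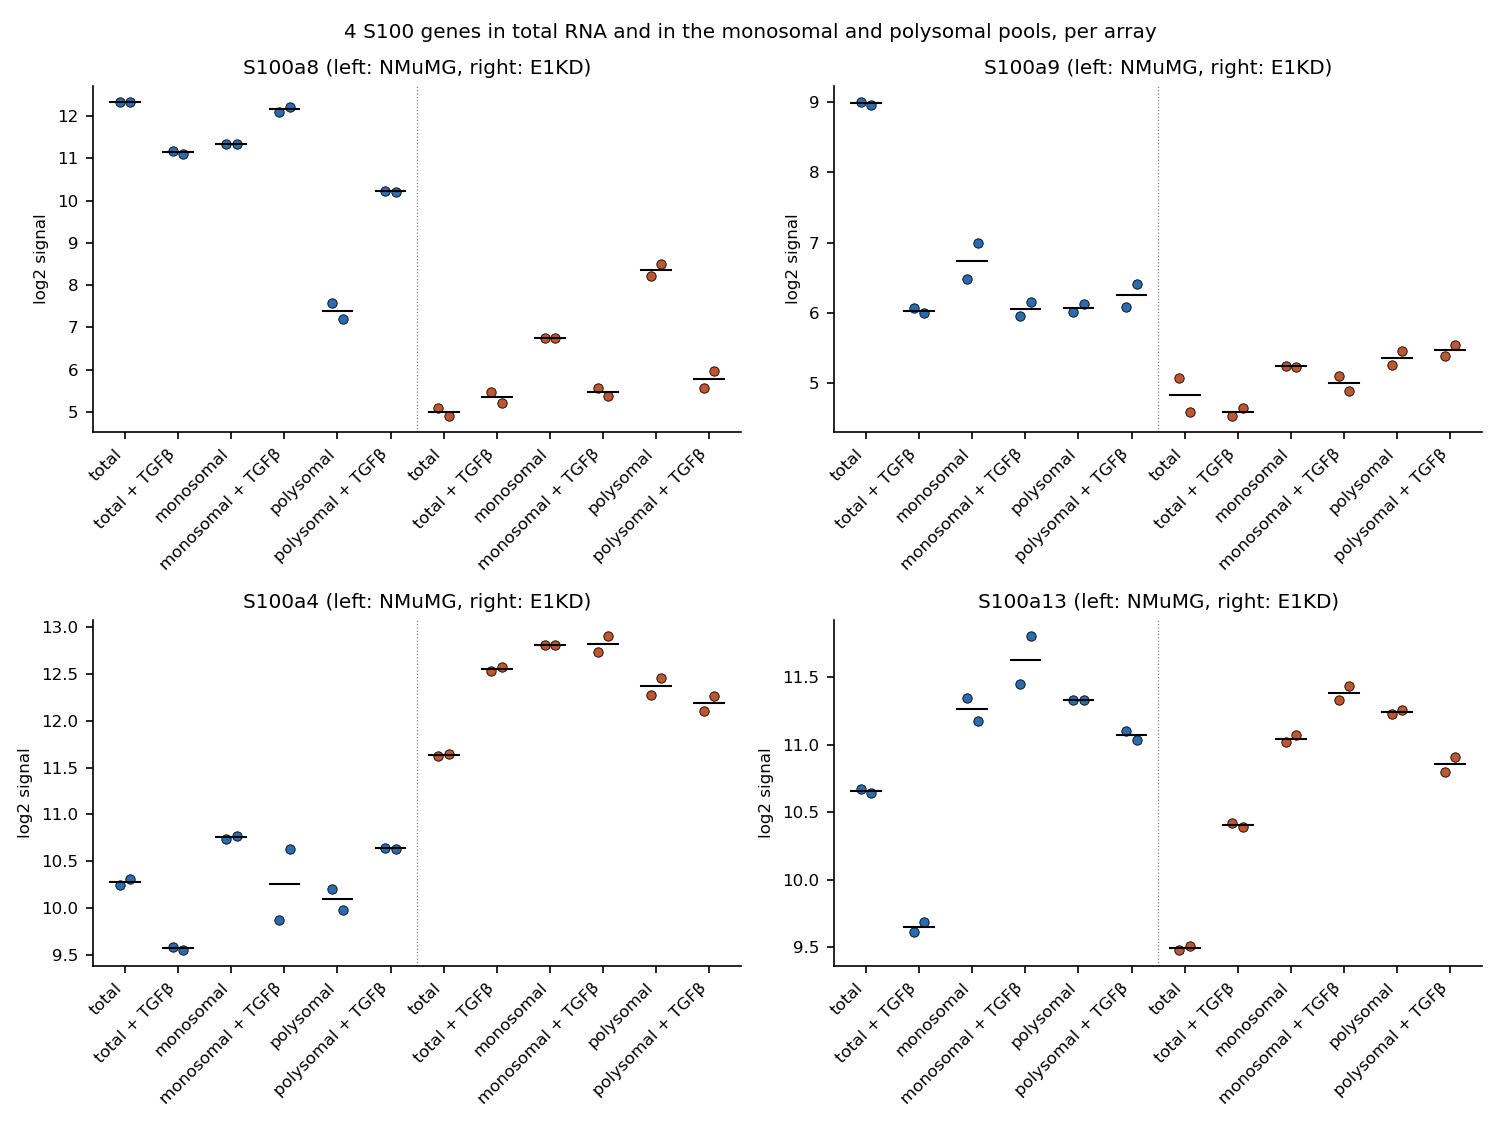
Log2 signal of S100a8, S100a9, S100a4 and S100a13 in total RNA and in the monosomal and polysomal pools of NMuMG (left) and E1KD (right), 2 arrays (points) and their mean (bar) per group. In NMuMG the S100a8 polysomal pool rises from 7.59 and 7.21 to 10.23 and 10.21 with TGFβ, and in E1KD it drops from 8.22 and 8.49 to 5.58 and 5.98.

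S100a9, the partner of S100a8, spread less across the pools, on dimmer values. In untreated NMuMG S100a9 gave 6.48 and 6.99 in the M pool and 6.02 and 6.13 in the P pool, and with TGFβ 5.96 and 6.16 in M and 6.09 and 6.41 in P. Untreated NMuMG total RNA gave 9.0 and 8.96, and the median of all values was 5.52. Whether such dim signals limit a pool difference was not tested. The untreated M arrays were the highest of the pool arrays, and the treated pools overlapped. With TGFβ S100a9 fell by 0.675 in M (adjusted p = 0.00262, lost under some alternative settings) and did not pass in P (0.175), beside -2.945 in total RNA. P minus M was -0.66 in untreated cells (adjusted p = 0.0034), which was -0.41 (adjusted p = 0.0807) without the second untreated M array and -0.43 (adjusted p = 0.0431) after centring on the actin and Gapdh control probe sets. The shift of 0.85 (SE 0.25, adjusted p = 0.00639) was not past the threshold when all 32 arrays were fitted together (adjusted p = 0.183). In E1KD the 4 pool groups lay between 4.89 and 5.55, below or just above the median of all values, and the shift there was 0.36 (adjusted p = 0.297). The difference between the lines' shifts was -0.50 (adjusted p = 0.287), with no call.

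S100a4 in untreated NMuMG gave 10.74 and 10.77 in the M pool and 10.20 and 9.98 in the P pool, and with TGFβ 9.87 and 10.63 in M and 10.64 and 10.63 in P. The first treated M array stood apart from its replicate by 0.76, so the groups of treated cells met. P minus M was -0.67 in untreated NMuMG (adjusted p = 0.00257), and -0.27 (adjusted p = 0.0627) after quantile normalization. The shift was 1.05 (SE 0.24, adjusted p = 0.00111), which was 0.67 (adjusted p = 0.00163) without that array and 0.55 (adjusted p = 0.00996) after quantile normalization. In E1KD the M pool gave 12.81 on both arrays and 12.74 and 12.91 with TGFβ, and the P pool 12.28 and 12.46, then 12.10 and 12.27. All 8 E1KD pool arrays lay above all 8 of NMuMG. The shift in E1KD was -0.20 (adjusted p = 0.558), and the lines' shifts differed by -1.25 (SE 0.34, adjusted p = 0.00968), or -0.80 (adjusted p = 0.0188) after quantile normalization. In the untreated pools S100a4 was higher in E1KD by 2.06 in M (adjusted p = 6.98e-08) and 2.28 in P (adjusted p = 1.63e-08).

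S100a13 moved toward the M pool with TGFβ in both lines. In NMuMG it gave 11.35 and 11.18 in M and 11.33 on both P arrays without TGFβ, then 11.45 and 11.81 in M and 11.10 and 11.04 in P, a shift of -0.63 (SE 0.16, adjusted p = 0.00227; 0.0558 with only the 8 arrays compared). In E1KD it gave 11.02 and 11.07 in M and 11.23 and 11.26 in P, then 11.33 and 11.44 in M and 10.80 and 10.91 in P, a shift of -0.73 (SE 0.16, adjusted p = 0.00365; 0.0508 with all 32 arrays). In treated cells the P arrays lay below the M arrays in each line, and the NMuMG difference of -0.56 (adjusted p = 0.000485) was -0.29 (adjusted p = 0.0361) after centring on actin and Gapdh. The lines' shifts differed by -0.11 (SE 0.22, adjusted p = 0.743).

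S100a1, S100a6 and S100a10 divided with smaller differences. For S100a6 the P arrays lay below the M arrays in all 4 states, at 14.06 to 14.23 against 14.44 to 14.71, with P minus M from -0.26 (untreated E1KD, adjusted p = 0.0207) to -0.53 (treated E1KD, adjusted p = 3.42e-05). The value of -0.26 was lost without any of 3 of its 4 arrays (both M arrays and the second P array; adjusted p of 0.0762 to 0.132). S100a10 gave 12.88 to 13.10 in the NMuMG M pools and 12.58 to 12.86 in the P pools, and P minus M was -0.30 without TGFβ (adjusted p = 0.00907) and -0.38 with it (adjusted p = 0.00267). Both fell short of the threshold after centring on the actin and Gapdh control probe sets, at -0.07 and -0.11, which also brought S100a6 to -0.24 and -0.22 in NMuMG with both still past the threshold, and the first was -0.24 (adjusted p = 0.0718) without the second untreated P array. S100a1 in untreated E1KD was 0.56 higher in P than in M (10.86 and 10.84 against 10.18 and 10.41, adjusted p = 0.00427), and 0.44 (adjusted p = 0.0629) without the first M array. Its shift there was -0.52 (adjusted p = 0.0532), where its other probe set gave -0.84 (adjusted p = 0.00841). The dimmest S100a10 probe set read 7.90 to 8.33 in total RNA of both lines and 4.57 to 5.97 in every pool, a gap that the other 2 S100a10 probe sets did not have.

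**Figure D4:**
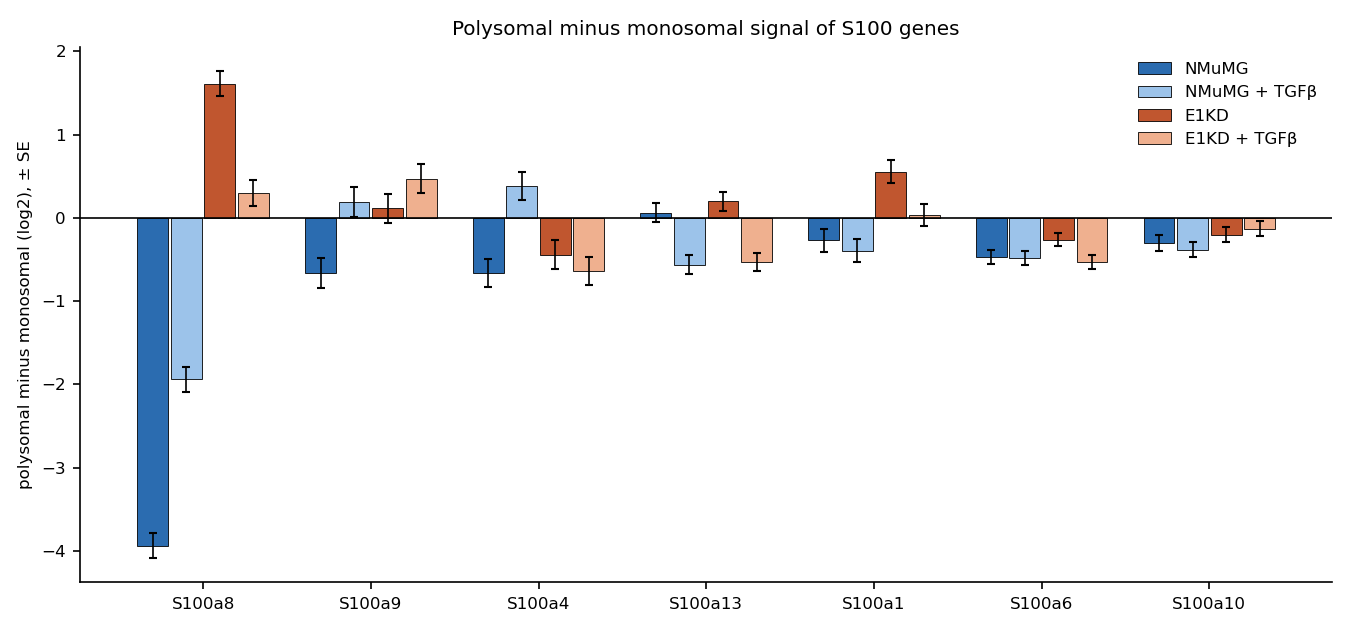
Polysomal minus monosomal signal (log2; bars, differences of 2 against 2 arrays; error bars, SE of the limma fit) of the 7 S100 genes in each line with and without TGFβ. S100a8 runs from -3.94 in untreated NMuMG to 1.61 in untreated E1KD, and the other 6 genes stay between -0.67 and 0.56.

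Counted over the 10 probe sets, P minus M was called for 0 higher and 6 lower in untreated NMuMG (71.2% of all probe sets passed), 0 and 6 in treated NMuMG (49.7%), 3 and 1 in untreated E1KD (35%) and 2 and 3 in treated E1KD (60.7%). The shift was called for 3 positive and 1 negative in NMuMG (70.4%) and 0 and 3 in E1KD (28.7%), and the difference of the shifts for 0 and 2 (36.5%). The S100 counts stood near or below the share over all probe sets and are no result about these genes as a set. TGFβ within a pool was called for 3 higher and 2 lower in the NMuMG M pool (75.3%), 3 and 0 in the NMuMG P pool (30.1%), 2 and 4 in the E1KD M pool (39.3%) and 0 and 1 in the E1KD P pool (4.45%). The untreated lines differed for 1 higher and 5 lower in the M pools (56.8%) and 3 and 1 in the P pools (49.7%).

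For the immunoprecipitates the labels disagree. The titles and source names put arrays 13A and 14B of the hnRNP E1 antibody in the untreated group and 14A and 13B in the TGFβ group, whereas the descriptions give TGFβ for 14A and 14B. Each comparison is therefore given both ways. S100a8 gave 10.10 on 13A, 11.50 on 14B, 11.46 on 14A and 10.55 on 13B, and with IgG 11.30 and 11.23 without and 11.24 and 11.11 with TGFβ. S100a9 gave 5.14, 7.02, 6.74 and 5.41 in the same order, and with IgG 7.41 and 7.20, then 6.87 and 7.34. For both genes the arrays numbered 13 lay below the arrays numbered 14, whatever the treatment label, and below all 4 IgG arrays. S100a13 gave 10.36, 11.21, 11.11 and 10.57, and S100a1 10.69, 11.27, 11.42 and 10.88, with the same split by array number.

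Grouped by title, TGFβ changed 0 of the 10 probe sets in the hnRNP E1 precipitate (0% of all probe sets by limma; 403 of 25432, and 0 of the 10, had an unadjusted p under 0.05), with S100a8 at 0.21 (SE 0.44) and S100a9 at -0.01 (SE 0.62). Grouped by description, 5 were higher and 0 lower (14.7% of all probe sets). S100a9 was then 1.61 higher (SE 0.17, adjusted p = 0.000381), S100a8 1.16 (SE 0.14, adjusted p = 0.000724), S100a13 0.70 (SE 0.12, adjusted p = 0.00546) and S100a1 0.56 (SE 0.10, adjusted p = 0.00617). S100a4 (0.20), S100a6 (0.14) and S100a10 (0.19) did not pass either way. In the IgG precipitate, where the labels do not conflict, TGFβ changed 0 of the 10 (0.00393% of all probe sets; 1765 of all, and 0 of the 10, had an unadjusted p under 0.05), with S100a13 at -0.33 (SE 0.29) and S100a4 at -0.24 (SE 0.14).

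The mean of the 4 hnRNP E1 arrays against the 4 IgG arrays does not depend on that label. By title, 0 of the 10 probe sets passed by limma (25.6% of all probe sets did), 3 of them with an unadjusted p under 0.05, and S100a9 had the largest value at -1.13 (SE 0.44, adjusted p = 0.0998). Grouping by description left this value at -1.13 and gave an adjusted p of 0.000184, since the spread within groups was smaller. S100a9 was then lower with the antibody than with IgG, as were S100a8 (-0.32, adjusted p = 0.0278), S100a4 (-0.24, adjusted p = 0.0233) and S100a10 (-0.24, adjusted p = 0.033), while S100a1 was higher (0.22, adjusted p = 0.0367). In that grouping 10725 of all 25432 probe sets passed, so these calls are no result about the S100 genes as a set. Pcbp1 itself was 0.32 higher with the antibody (SE 0.07, adjusted p = 0.0171).

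**Figure D5:**
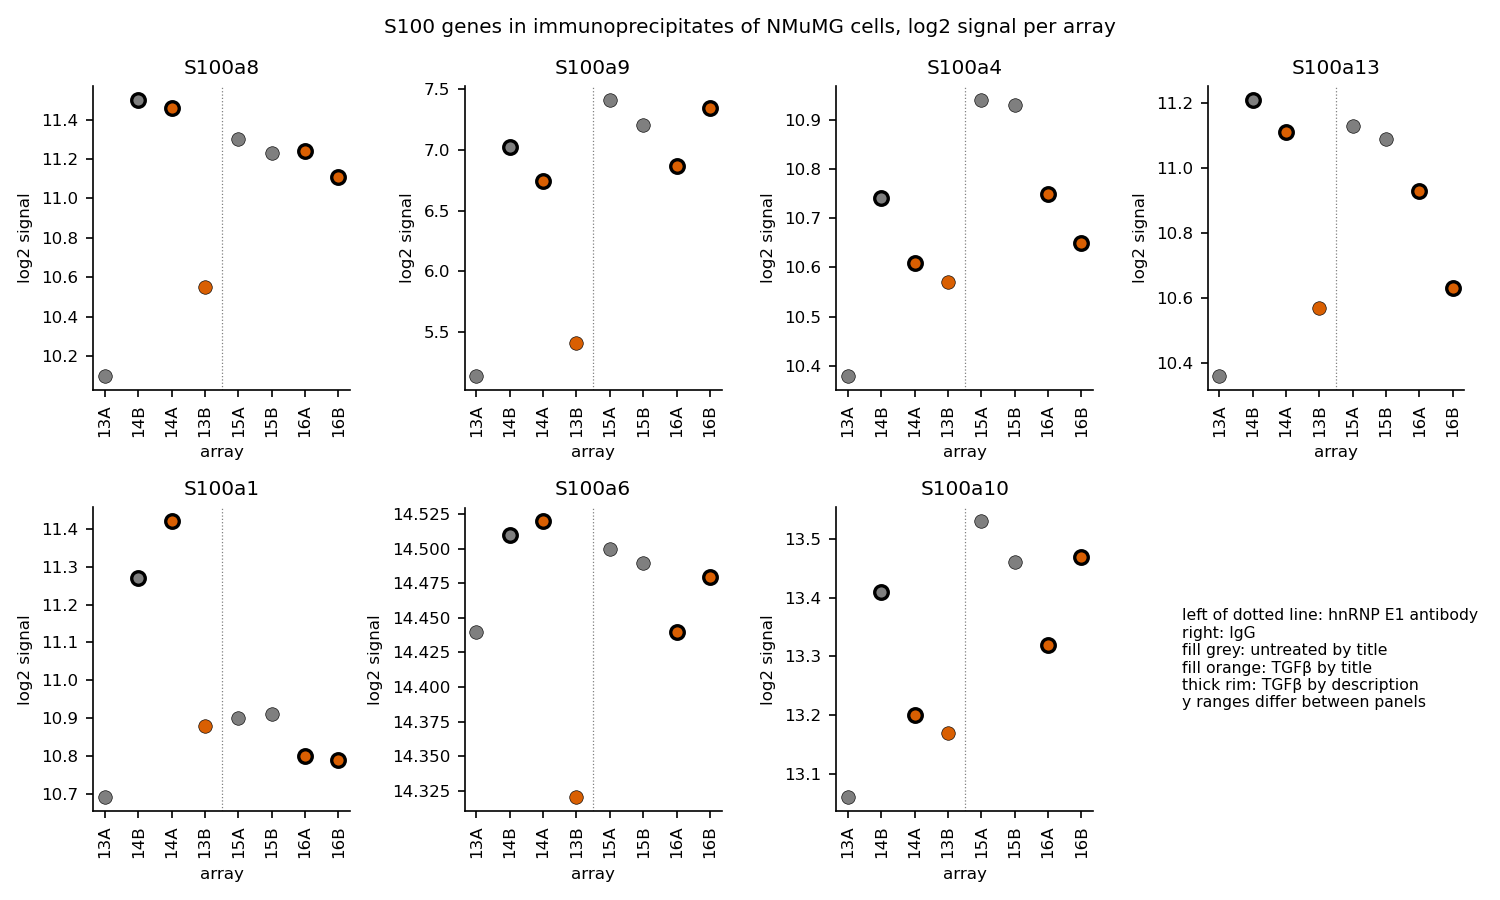
Log2 signal of the 7 S100 genes on the 8 arrays of NMuMG immunoprecipitates (x, array number; left, hnRNP E1 antibody; right, IgG); fill gives the treatment by title and a thick rim TGFβ by description. S100a8, S100a9, S100a13 and S100a1 are lower on 13A and 13B than on 14A and 14B.

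Over the 24 total RNA and pool arrays the members' levels went together in part, as a description over arrays that share lines and preparations. S100a8 and S100a9 had r = 0.777, and the head-to-head pair S100a1 and S100a13 r = 0.759. S100a4 ran against S100a8 (r = -0.762) and S100a9 (r = -0.630). S100a10 had its highest r with a member, 0.547, with S100a6. The genes most like each member over the same arrays were Abhd2 (r = 0.952) and Arap3 (0.926) for S100a8, Mcpt8 (0.917) and Rgl1 (0.900) for S100a9, Cryab (0.971) and Glipr2 (0.959) for S100a4, and Uqcr11 (0.923) and Ccdc12 (0.922) for S100a13. They were Serf2 (0.931) and Gpd1 (0.928) for S100a1, Tpi1 (0.937) and Prpf19 (0.927) for S100a6, and Gpd1l (0.881) and Mrpl3 (0.841) for S100a10.

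The other S100 genes and the proteins that S100s bind were read from lists. Of 5 fused-type S100 genes such as Flg, 0 passed the filter. Of 7 further listed genes with a probe set, S100a3, S100a14, S100a16 and S100pbp passed it, the last encoding an S100P-binding protein and not an S100 protein. Among those 4, TGFβ called 0 in NMuMG and S100a16 alone in E1KD (0.64), where 5.43% and 21.2% of all probe sets passed, and between the untreated lines S100a16 (0.55) and S100pbp (0.52) were higher and S100a3 (-0.79) lower in E1KD. Of 8 receptors and transporters, 2 were higher and 3 lower in untreated E1KD, where 29.3% of all probe sets passed. Tlr4, a receptor of S100A8 and S100A9, was higher by 1.95, and its co-receptor Cd14 lower (-1.94). TGFβ called Cd14 in both lines, with -1.04 in NMuMG and 1.45 in E1KD, and the difference of 2.49 passed, while Ager, the RAGE gene, was not called in these comparisons.

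Of 19 intracellular partners, 3 were higher and 5 lower in untreated E1KD (29.3% of all probe sets passed). A polysome shift was called positive for 15 and negative for 3 in NMuMG, where 70.4% of all probe sets passed, and for 11 and 1 in E1KD, where 28.7% did. Capza1, which caps actin filaments, had a shift of 2.56 in NMuMG and 1.15 in E1KD, and Cacybp, the calcyclin-binding protein gene, 2.24 and 1.20. The median shift of the partners in NMuMG was 1.23, beside 0.09 over all probe sets tested. The latter median depended on the filter, at -0.245 with no filter and 0.28 with a filter on 16 arrays. The partners stood by their brightest probe sets, and the part of brightness in their shift was not tested. Plat, whose product tissue plasminogen activator binds S100A10 with annexin A2, was 3.76 lower in untreated E1KD, fell by 2.19 with TGFβ in NMuMG and rose by 1.59 in E1KD. Of 11 annexins, 8 had a positive and 0 a negative shift in NMuMG, near the 70.4% of all probe sets that passed, and 5 and 0 in E1KD (28.7%). Anxa2, the S100A10 partner, had a shift of 0.51 in NMuMG, where S100a10 itself had -0.08 (adjusted p = 0.594).

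Of 9 neighbours of the S100 cluster on chromosome 3, 1 was higher and 2 lower with TGFβ in NMuMG, where 5.43% of all probe sets passed, and 5 higher and 0 lower in E1KD, where 21.2% did. Sprr1a, a cornified-envelope gene, fell by 2.09 in NMuMG and rose by 2.33 in E1KD, the difference of 4.41 passing, and Lce1f rose in both (3.01 and 1.28). The TGFβ targets were higher for 6 of 6 in NMuMG and 4 of 6 in E1KD, beside the same shares, with Itgb6 at 1.70 and 1.19. The median TGFβ response of the 10 S100 probe sets was -0.37 in NMuMG and 0.28 in E1KD, beside 0.01 and -0.02 over all probe sets tested.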

How the data were processed

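The authors deposited log2 signals with 2 decimals, summarised by RMA in Expression Console (Affymetrix). The submitters' notes also name MAS5, whose calls were not used here. No further normalization was applied. Arrays were grouped by title and source name, with the description as an alternative for the hnRNP E1 arrays. The 64 control probe sets were removed, and 25432 probe sets with a value over 5.52, the median of the table, on 8 or more of the 32 arrays were tested. Differences were tested 2-sided with limma 3.58.1 in R 4.3.3 (group means, eBayes), with 1 model for the 24 total RNA and pool arrays (12 residual degrees of freedom) and 1 for the 8 precipitates (4), with Benjamini-Hochberg adjustment over the probe sets kept and a threshold of 0.05. Where a gene had several probe sets, the brightest on average represented it, and the others were named where they differed. From lists, up to 6 called genes of largest change could be named. Likeness was Pearson's r over 24 arrays. The knockdown contrasts in the pools were added after the values were seen. Members and lists were chosen with earlier results of these data known. The labels call the 2 arrays of a condition biological replicates and the methods call them independent samples, with no further detail. Tables were handled with Python 3.11.15, pandas 2.3.3 and numpy 2.4.6, and figures drawn with matplotlib 3.10.9. The scripts were tested on simulated data. Alternatives were other filters and scalings, an intensity trend, a replicate block, other sets of arrays and leaving out each array. Shared replicate numbers were not taken as pairs: over 66 pairs of groups the correlation of deviations was -0.383 to 0.323, over 0.1 in 21 and under -0.1 in 11.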

Additional observations from a re-analysis of the deposited data

Results flagged for a closer look

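The TGFβ response in total RNA differed between the lines by the interaction test, E1KD minus NMuMG, for S100a4 (1.64), S100a8 (1.55), S100a9 (2.71), S100a10 (0.61) and S100a13 (1.92). For S100a8 and S100a9 the response in E1KD was not called, and its signals lay near or below the median of all values. The polysome shift differed between the lines for S100a4 (-1.25) and S100a8 (-3.31), the latter with both treated E1KD pools at 5.39 to 5.98, around the median of all values, so that its size rests on dim values. One array of treated NMuMG M pools gave S100a4 9.87 where the other gave 10.63, and that group enters the S100a4 shift.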

How the results depend on the processing

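Precision rests on 2 arrays per condition. Over all comparisons 72 calls were made for the probe sets that stand for the genes. Of these, 4 were for TGFβ in the hnRNP E1 precipitate grouped by description (S100a1, S100a8, S100a9 and S100a13). The alternatives were not run on these 4. Grouped by title 0 of them passed, and S100a9 went from 1.605 to -0.005. Under the alternatives run on the other calls, 0 changed direction, and 25 fell short of the threshold under at least 1 setting. Among those were 1 of 17 calls of S100a8 and 5 of 11 of S100a9, totals that include the calls by description. The hnRNP E1 minus IgG count of 0 (6522 of all 25432 probe sets) became 5 when grouped by description (10725) and 2 with all 32 arrays in 1 fit (6998). It also changed when single arrays were left out, most without the array titled untreated replicate 2. The TGFβ count in the hnRNP E1 precipitate went from 0 to 5 when grouped by description, while that over all probe sets went from 0 to 3737. The E1KD shift count of 3 became 5 with an intensity trend, where the count over all probe sets went from 7289 to 7765. The P minus M count of 4 in untreated E1KD fell when some single arrays were left out, most without the first M array. The cause of these changes was not tested. With the replicate block the counts were 4 and 4 for TGFβ in total RNA of NMuMG and E1KD, beside 1429 and 5510 of all 25432 probe sets. They were 9 and 6 for the knockdown without and with TGFβ (7521 and 6994 of all) and 6 for the difference of responses (3001). P minus M gave 6 and 5 in untreated NMuMG and E1KD (18162 and 9015), and the shifts gave 4 and 3 (17959 and 7428). The precipitates gave 0, beside 5242 of all for hnRNP E1 minus IgG and 0 for TGFβ in either precipitate. Replicate numbers are only shared, with median r of 0.065 over 66 pairs. Centring on actin and Gapdh moved the median of all probe sets by -0.18 to 0.27 and quantile normalization by -0.15 to 0.19.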
